A study of Mus musculus with 29 samples.

Results

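The genes described here are 45 of the 35199 genes in each table of this mouse bladder series. They are 25 glutathione transferases, 8 glutathione peroxidases, 5 genes that make, use up or recycle glutathione, and 7 genes of the NRF2 system, namely Nfe2l2 (which encodes NRF2), its inhibitor Keap1 and the enzymes Nqo1, Hmox1, Txnrd1, Srxn1 and Prdx1. They were taken by symbol, leaving out pseudogenes, and the rule uses no measured value, although the set was proposed with earlier results of these data known. Expression was measured by RNA-seq in 6 groups of samples. The 4-day controls (n = 4) and the 4-day K5VP16;Pparg mutants (n = 5) are urothelial cells positive for Gfp that were sorted 4 days after tamoxifen, without carcinogen. The other groups are laser-captured tumor cells of mice labelled as given BBN, a bladder carcinogen supplied in drinking water, for 5 months: basal tumors (n = 3), luminal tumors (n = 3), luminal domains (n = 3) and basal-like domains (n = 3). The domains are the upper and lower parts of mixed lesions. In the mice with tumors tamoxifen was given into the bladder after the first month of BBN, and their titles carry a time of 4 months, which is the time from tamoxifen to collection in the study's design.

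The labels list the 4-day controls and the mice with basal tumors as wild type. The study's methods give the sorted controls as carrying the Krt5 Cre driver with the mTmG reporter, and the sorted mutants as carrying mTmG as well. For tumors the study names both such controls and mice with the unrecombined VP16;Pparg allele, and the labels do not tell these apart. The mutants, the luminal tumors and both kinds of domain are labelled K5VP16;Pparg+/-. In them a tamoxifen-dependent Cre driven by Krt5, which is active in basal cells, switches on Pparg1 fused to the VP16 activator from the Rosa26 locus. Young adult mice of both genotypes received tamoxifen, and the sorted or captured cells include the descendants of marked basal cells as well as basal cells. The labels do not say which mouse a captured region came from, nor which luminal and basal-like domains share a lesion, so p-values measure the spread between these samples. Libraries are lettered here in the order of the deposited columns.

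Glutathione is a small peptide that cells keep at a high level as a reducing agent. Gclc and Gclm form the enzyme of the first, limiting step of its synthesis, Gss completes it, Gsr returns the oxidized form to the reduced one, and Ggt1 cleaves it outside the cell. Transferases join glutathione to reactive compounds, among them products of carcinogens, and peroxidases use it to reduce peroxides. NRF2 is held in the cytoplasm and led to degradation by Keap1. When oxidants or electrophiles modify Keap1, NRF2 enters the nucleus and binds antioxidant response elements, and many of the genes described here are known to respond to it. The urothelium faces urine, through which such compounds leave the body.

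Several of the genes lie side by side in the genome (assembly GRCm38.p6), and this limits how well reads can be assigned to one of them. The 7 mu transferases occupy chr3:107895854-108045179, the 3 pi transferases chr19:4035411-4059605, the 4 theta transferases chr10:75774117-75837419, and Gsta1, Gsta2 and Gsta4 lie within chr9:78191966-78347192, whereas Gsta3 lies apart at chr1:21240565-21265575. Words of 31 bases in each gene's GENCODE transcripts were compared with the transcripts of all other genes. For Gsta1 92.9% of these words also occurred elsewhere, for Gsta2 60.7%, for Gstp2 60.3%, for Gstp1 38.5%, for Gpx4 38.9%, for Gstm3 37.7% and for Gstm1 28.8%, so values of these genes are uncertain between copies. For Gsta3 the share was 2.75%, for Gstm4 3.31%, for Mgst3 1.31% and for Nqo1, Gclc, Nfe2l2 and Gsta4 it was 0%.

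Promoters were taken from RefSeq (GRCm38.p6) as the 250 bases before and 50 bases after each annotated start, and 40 of the 45 genes had at least one. The core of the antioxidant response element, TGACNNNGC, was searched on both strands. It occurred in 12 of the 57 promoters of these genes (21.1%) and in 4071 of all 32851 promoters of the same length (12.4%). The genes with it were Gclm, Ggt1, Gsta3, Gstm5, Gstm7, Mgst1, Nfe2l2, Prdx1, Srxn1 and Txnrd1. The exact direct repeat of AGGTCA with 1 base between the copies, a form of the element that Pparg binds with its partner RXR, occurred in 0 of the 57 promoters and in 13 of all of them (0.0396%). These matches describe letters in the windows searched and are not binding data.

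The promoters below are printed 5′ to 3′ on the strand of the gene, with the core in capitals. They belong to 4 of the 5 genes called in 2 or more comparisons, the other being Gstt3, which lacks the core, and among the genes called in any comparison that have a promoter in the table, Gsta3 alone carries the core. Gsta3 (chr1:21240335-21240634, plus strand) was called in luminal tumors and in luminal domains, and its core TGACATTGC begins 121 bases before the start. The windows of Gstm1 (chr3:108017924-108018223, minus strand, 1 of 2 annotated starts, both without the core), Mgst3 (chr1:167393792-167394091, minus strand) and Nqo1 (chr8:107403156-107403455, minus strand) hold none. Gclc and Gstt2, each called in 1 comparison, were among the 5 genes with no promoter in the table.
Gsta3: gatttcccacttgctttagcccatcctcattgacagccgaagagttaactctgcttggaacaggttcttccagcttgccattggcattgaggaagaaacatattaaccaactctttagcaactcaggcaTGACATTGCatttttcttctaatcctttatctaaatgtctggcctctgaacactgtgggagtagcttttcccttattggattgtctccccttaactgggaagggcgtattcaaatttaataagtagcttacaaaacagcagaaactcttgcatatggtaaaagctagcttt
Gstm1: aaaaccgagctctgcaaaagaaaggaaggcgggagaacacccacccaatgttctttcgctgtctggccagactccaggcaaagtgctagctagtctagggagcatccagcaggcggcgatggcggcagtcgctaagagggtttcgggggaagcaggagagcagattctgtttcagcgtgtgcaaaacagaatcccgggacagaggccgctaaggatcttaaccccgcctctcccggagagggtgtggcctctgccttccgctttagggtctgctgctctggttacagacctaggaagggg
Mgst3: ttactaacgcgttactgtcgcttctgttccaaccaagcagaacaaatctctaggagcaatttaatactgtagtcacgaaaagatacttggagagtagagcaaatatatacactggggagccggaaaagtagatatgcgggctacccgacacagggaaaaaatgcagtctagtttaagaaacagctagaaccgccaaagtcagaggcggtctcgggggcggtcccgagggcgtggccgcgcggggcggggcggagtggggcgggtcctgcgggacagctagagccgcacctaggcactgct
Nqo1: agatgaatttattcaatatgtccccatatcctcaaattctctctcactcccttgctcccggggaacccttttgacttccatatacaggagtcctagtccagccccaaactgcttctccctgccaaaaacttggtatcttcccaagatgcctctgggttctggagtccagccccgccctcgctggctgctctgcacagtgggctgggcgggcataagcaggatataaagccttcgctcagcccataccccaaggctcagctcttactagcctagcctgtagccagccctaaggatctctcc

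The values are normalized counts, made by the authors from kallisto's estimates, and their sum per library ran from 36520193 to 41435665 in sorted cells and from 41697178 to 53904714 in captured cells. The most frequent low value of a library, which shows about what 1 read was worth, ranged from 0.727 to 1.47 in sorted cells, so relative depth differed by up to 2.02 times, and from 0.866 to 1.19 in captured cells. The Y-linked gene Ddx3y had 1471, 1636 and 1551 normalized counts in controls b to d of the sorted cells, 7.57 in control a and 6.08 to 30.4 in the 5 mutants, so that Y-linked genes divide the sorted libraries nearly as the genotype does. Pparg itself had 9381 to 9999 normalized counts in 4-day controls against 6111 to 9032 in mutants, while in tumors it ranged from 13.02 to 125.6 in basal and from 3579 to 8632 in luminal ones. Luminal tumor c had more of the basal keratin Krt14 and less of the uroplakin Upk2 than luminal tumors a and b, with 95590 normalized counts of Krt14 against 16890 and 2431, and 3492 of Upk2 against 31620 and 60110.

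The first comparison asks how the glutathione and NRF2 genes stood shortly after Pparg was activated in basal cells in the absence of carcinogen. Mgst3 rose, Nqo1 and Gclc fell, and most of the other genes differed by less than the spread between libraries. Of the 45 genes, 41 reached 10 normalized counts in at least 4 libraries and were tested with limma on log2(normalized count + 1) among 16413 genes. At an adjusted p under 0.05 (Benjamini-Hochberg), 1 of the 41 was higher in mutants, where 1.77% of all genes tested were, and 2 were lower, where 1.08% were, against 2.85% in either direction. The median log2 difference over the 41 genes was 0.04, and over all genes tested it was 0.01.

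Nqo1, a quinone reductase and one of the best known NRF2 targets, showed the largest called difference of the 45 genes in sorted cells. Its level was 26790, 33120, 23320 and 30560 normalized counts in controls a to d, and 18260, 14900, 12290, 11370 and 10540 in mutants a to e. Every mutant lay below every control. The log2 difference was -1.10 ± 0.17 (SE), or 2.14-fold lower in mutants, with an adjusted p of 0.0146 by limma.

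Gclc, the catalytic subunit of the enzyme that starts glutathione synthesis, had 10780, 11970, 11960 and 11040 normalized counts in controls and 8560, 6131, 6816, 7194 and 9102 in mutants. The groups did not overlap, and the log2 difference was -0.61 ± 0.12 (limma adjusted p = 0.0304). Its partner, the modifier subunit Gclm, had 9570, 11870, 9728 and 9023 in controls and 8226, 6795, 5540, 7729 and 7271 in mutants. These also did not overlap, but the difference of -0.50 ± 0.13 did not pass the threshold (adjusted p = 0.0682). Gsr, which regenerates glutathione, and Gss stood apart from this pair, with log2 differences of 0.06 ± 0.19 and 0.54 ± 0.19 and overlapping groups.

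Nfe2l2 showed the same order of groups. It had 37330, 33730, 31500 and 28420 normalized counts in controls and 17650, 26840, 18580, 23790 and 24140 in mutants, with a log2 difference of -0.57 ± 0.15 (adjusted p = 0.0695). Keap1, by contrast, stayed within 3427 to 3691 in controls and 3455 to 3806 in mutants, with a difference of 0.01 ± 0.07. The remaining NRF2 enzymes, Prdx1, Txnrd1, Srxn1 and Hmox1, had overlapping groups and differences from -0.11 to 0.44. Summed over the 7 genes of the NRF2 system, the share of all normalized counts was 0.228 to 0.287% in controls and 0.176 to 0.203% in mutants. Of the 7, 4 were higher and 3 lower in mutants on average, and only Nqo1 and Nfe2l2 lay lower without overlap.

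Mgst3, a membrane-bound transferase that also reduces lipid peroxides, was the 1 gene that rose. Controls had 18360, 19620, 14960 and 16330 normalized counts and mutants 31780, 33530, 26470, 23370 and 27010, with no overlap. The log2 difference was 0.71 ± 0.13, or 1.64-fold, with an adjusted p of 0.0245. The other microsomal genes, Mgst1 and Mgst2, differed by -0.11 ± 0.22 and 0.19 ± 0.21, with overlap.

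Among the 21 cytosolic and mitochondrial transferase genes tested none was called. In Gstk1, a transferase of mitochondria and peroxisomes, the groups did not overlap, with 551 to 631.8 normalized counts in controls and 360.8 to 509.8 in mutants (log2 difference -0.47 ± 0.15, adjusted p = 0.125). Gstk1, Gclm and Nfe2l2 are named because their groups did not overlap, a choice made after their values were seen. Over all members tested, 1 gene lay higher and 5 lower in mutants without overlap, where 4.67% and 4.51% of all genes tested did. Gstm1 alone took 1.4 to 2.93% of all normalized counts in controls and 1.46 to 2.79% in mutants. Its level was 519000, 812300, 820100 and 1092000 in controls and 594100, 968100, 756400, 688200 and 1067000 in mutants, a difference of 0.02 ± 0.36 whose sign changed with the scaling and with the libraries left out. The 95% interval of the difference ran from -0.785 to 0.83.

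None of the 6 peroxidases tested was called. Gpx1, the main cytosolic peroxidase, had 13870, 15140, 14330 and 15910 normalized counts in controls and 28330, 24400, 23160, 15730 and 15440 in mutants. Mutants a to c stood above all controls and mutants d and e within their range, with a log2 difference of 0.49 ± 0.185 (adjusted p = 0.17). Gpx3, which is secreted, had 66.83 normalized counts in control a, the control low in Y-linked genes. It had 3163, 5836 and 10620 in controls b to d and 193.4 to 2131 in mutants. Summed markers of fibroblasts reached 11680 to 84730 in controls against 30700 to 217900 in mutants, those of leukocytes 1132 to 2081 against 865.5 to 2872, and 1 of 8 fibroblast markers was called higher and none of 11 leukocyte markers tested was called. Smooth muscle markers summed to 195.3 to 1221 in controls and 435.3 to 2999 in mutants, with 3 of 7 higher without overlap and 0 called. Basal and squamous urothelial markers summed to 141900 to 177500 in controls and 98090 to 137600 in mutants, without overlap. Of the 6 tested, 3 were higher and 3 lower on average, and 1 was called higher and 1 lower. Pan-epithelial markers summed to 248800 to 321800 in controls and 267500 to 528000 in mutants, with 3 of 4 higher on average and 1 called lower. Luminal urothelial markers summed to 305400 to 511000 and 359300 to 732800, with 2 of 13 called higher, and proliferation markers to 3212 to 8322 and 4700 to 27030, with 8 of 8 higher on average and 0 called. The part of such cells in these results was not tested.

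**Figure D1:**
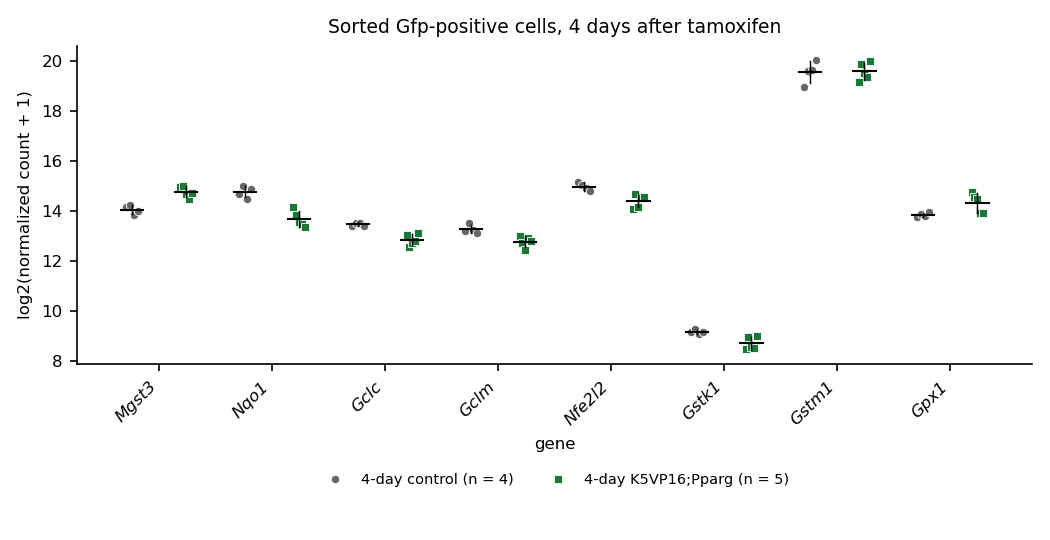
Log2(normalized count + 1) of 8 genes in sorted cells, 1 point per library, for 4 controls (circles) and 5 K5VP16;Pparg mutants (squares), with the group mean as a bar and the SD as a line. Mgst3 lies higher and Nqo1, Gclc, Gclm, Nfe2l2 and Gstk1 lower in every mutant than in every control, while Gstm1 and Gpx1 overlap.

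Of 17 alternatives, the call in sorted cells was lost in 9 for Gclc, 6 for Mgst3 and 2 for Nqo1. Without control b 0 of the 41 genes were called, with an adjusted p of 0.0501 for Nqo1, 0.0503 for Mgst3 and 0.0984 for Gclc, and without control c, control d or mutant c 1 was. Control a, the control low in Y-linked genes, lay with the other controls in all 3 genes. In Gpx3, which was not called, it lay below every mutant, while the other controls lay above every mutant. Set alone against the 5 mutants, which are also low in Y-linked genes, control a gave log2 differences of -1.02 for Nqo1, 0.62 for Mgst3 and -0.53 for Gclc. With a control arm of 1 library these are values and not a test, and the part of the Y-linked division in the 3 calls was not tested.

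Genes of neighbouring pathways, from lists drawn up with earlier results of these data known, were read from the same fit, in which 1.77% of all genes tested were higher and 1.08% lower. Of 29 genes tested for cysteine, glutathione and conjugate handling, 2 were higher and 1 lower. The lower one was Lancl1, a glutathione-binding protein, at 11690 to 14850 normalized counts in controls and 5446 to 8769 in mutants (log2 difference -1.04 ± 0.15, adjusted p = 0.00997). Of the higher ones, Ggt6, a relative of Ggt1, had 65.5 to 129.5 in controls and 161.9 to 258.4 in mutants (1.21 ± 0.25, adjusted p = 0.0337). Of 10 superoxide and peroxide genes tested 2 were higher, led by the paraoxonase Pon3 at 2246 to 2853 in mutants and 843.7 to 1086 in controls (1.49 ± 0.11, adjusted p = 9.06e-05). The list of other NRF2-responsive genes holds enzymes and other proteins, among them Cd36, which the study counts with genes of lipid metabolism. Of its 23 genes tested 3 were lower and 0 higher. They were Adh7, an alcohol dehydrogenase acting on retinol, at 5353 to 10180 in controls and 2153 to 3971 in mutants (-1.34 ± 0.25, adjusted p = 0.0242), the iron exporter Slc40a1, at 3871 to 4391 and 1844 to 2888 (-0.69 ± 0.14, adjusted p = 0.0288), and Ephx1, at 13330 to 17990 and 9144 to 10530. No gene was called among 22 of the thioredoxin and peroxiredoxin list, 9 of NADPH supply and 14 of NRF2 partners. Of 17 alternatives, the call was lost in 10 for Ggt6, 8 for Slc40a1, 7 for Adh7, 2 for Lancl1 and 1 for Pon3.

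The second comparison sets luminal tumors of K5VP16;Pparg mice against basal tumors of controls after carcinogen. The transferases Gsta3, Gstm1, Gstt3 and Mgst3 rose in luminal tumors, and so did Nqo1, by 15.4-fold. Of 40 genes tested among 14631, 5 were higher, where 1.39% of all genes tested were, and 0 were lower, where 1.16% were, against 2.54% in either direction. Unadjusted, 19 of the 40 had a p under 0.05, as did 2709 of the 14631. The median log2 difference was 1.48 over the 40 genes and -0.10 over all genes tested. In 16 of the 40 every luminal tumor lay above every basal tumor, and in 1 below, where 10.3% and 11.5% of all genes tested did. Gsta3, Gstm6 and Gstm7 were among the genes that passed the filter only with luminal libraries, so the counts and the median describe the genes tested and give no support to a direction.

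Gsta3, an alpha transferase active against aflatoxin products, had 18.2, 7.2 and 307.9 normalized counts in basal tumors a to c. In luminal tumors a to c it had 11780, 8654 and 25660. The lowest luminal value was thus far above the highest basal one, and the log2 difference was 8.56 ± 1.15 (limma adjusted p = 0.0183). Gsta3 reached the filter only with luminal libraries, and with no filter on low values its adjusted p was 0.0327. Gsta2, a near copy of Gsta1, had 63.6, 16.3 and 953.1 against 2207, 5028 and 14630, a difference of 5.74 ± 1.28 that did not pass (adjusted p = 0.0517). Gsta4, which conjugates the lipid peroxidation product hydroxynonenal, had 51170, 136600 and 58750 against 398500, 228800 and 342700 (2.08 ± 0.495, adjusted p = 0.0637). All 4 alpha transferases were higher on average, 3 of them without overlap.

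Gstm1, a mu transferase whose human counterpart is often deleted in the germline, rose as well. Basal tumors had 511.4, 2620 and 2745 normalized counts, and luminal tumors 311500, 699500 and 48870. The log2 difference was 7.15 ± 1.04 (adjusted p = 0.0206), and luminal tumor c stood lowest of the luminal tumors. Its share of all normalized counts was 0.00119 to 0.00628% in basal tumors and 0.0958 to 1.33% in luminal ones, beside the 1.4 to 2.93% of the sorted control cells, which were normalized separately. Gstm4 had 242.9, 208.5 and 355 against 1500, 8372 and 866.3, with a difference of 3.08 ± 0.78 (adjusted p = 0.0758). Gstm7 had 0, 1.77 and 1.88 against 11.9, 63.9 and 281.7, a fitted difference of 4.95 ± 1.54 (adjusted p = 0.13) that depends on the pseudocount of 1. Gstm3 was listed at 0 in all 3 basal tumors and at 14.7, 30.99 and 1.05 in luminal tumors, too low to be tested. Gstm5 had the opposite order on average, with 290.2 to 6631 in basal and 237.9 to 597.2 in luminal tumors, and overlapped.

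In the pi class both near-identical copies stood higher. Gstp1, which is known for its rise in many tumors, had 7222, 26400 and 28630 normalized counts in basal tumors and 98040, 53500 and 173300 in luminal tumors (2.46 ± 0.61, adjusted p = 0.0713). Gstp2 had 404.9, 755.2 and 726.1 against 59490, 5213 and 3017, so that luminal tumor a exceeded the others more than 10 times (4.01 ± 0.93, adjusted p = 0.0583). In the theta class, which acts on small halogenated compounds, Gstt3 rose, with 252.2, 1197 and 143.6 in basal and 13270, 9474 and 2328 in luminal tumors (4.24 ± 0.84, adjusted p = 0.0377). Gstt2 had 633, 751.6 and 109.7 against 6027, 2425 and 927 (2.67 ± 0.88, adjusted p = 0.15). Gstt1 overlapped and was 0 in luminal tumor c. Of the omega, zeta and kappa genes, Gsto2, which reduces dehydroascorbate, had 63, 156.1 and 117.3 against 328.9, 1010 and 460.6 (2.339 ± 0.745, adjusted p = 0.138), and the other 3 overlapped.

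Mgst3 rose again. Its level was 14310, 23110 and 10160 normalized counts in basal tumors and 96500, 82710 and 85340 in luminal tumors, 5.87-fold higher (log2 difference 2.55 ± 0.36, adjusted p = 0.02). The 3 luminal tumors lay close together and more than 3 times above the highest basal tumor. Mgst1 and Mgst2 were higher on average, by 2.50 ± 0.85 and 3.68 ± 1.44, and overlapped.

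None of the 6 peroxidases tested was called, and their median log2 difference was -0.08. Gpx1 had 77130, 65700 and 97360 normalized counts in basal tumors and 97990, 85390 and 195200 in luminal ones, a difference of 0.58 ± 0.42 with a 95% interval of -0.37 to 1.52. Gpx8, a peroxidase of the endoplasmic reticulum, was the 1 member lower without overlap, at 3206 to 3831 against 2008 to 3020 (-0.48 ± 0.32, adjusted p = 0.458). Among the genes of glutathione synthesis, Gss had 914.5, 1952 and 4441 against 6557, 5470 and 7719 (1.71 ± 0.545, adjusted p = 0.138), and Gclc, Gclm and Gsr overlapped, with differences of 0.37 to 1.26.

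Nqo1, lower at 4 days, was higher in luminal tumors. Basal tumors had 379.8, 2541 and 1894 normalized counts and luminal tumors 13780, 15050 and 32370, a log2 difference of 3.95 ± 0.67 (adjusted p = 0.0281). Srxn1, which repairs overoxidized peroxiredoxins, had 676.5, 896.1 and 1594 against 2178, 1852 and 6892 (1.61 ± 0.60, adjusted p = 0.193). Txnrd1, the cytosolic thioredoxin reductase, had 1807, 2863 and 3036 against 3410, 5333 and 14220 (1.35 ± 0.55, adjusted p = 0.228). Nfe2l2 and Keap1 differed by 0.16 ± 0.35 and -0.49 ± 0.34, and Hmox1 and Prdx1 by 0.95 ± 0.62 and -0.08 ± 0.47, all with overlap. Luminal tumor c was the highest luminal tumor for Nqo1, Srxn1, Txnrd1, Gclc, Gclm and Gsr, and the lowest for Gstm1, Gstm4, Gstt2 and Gstt3.

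**Figure D2:**
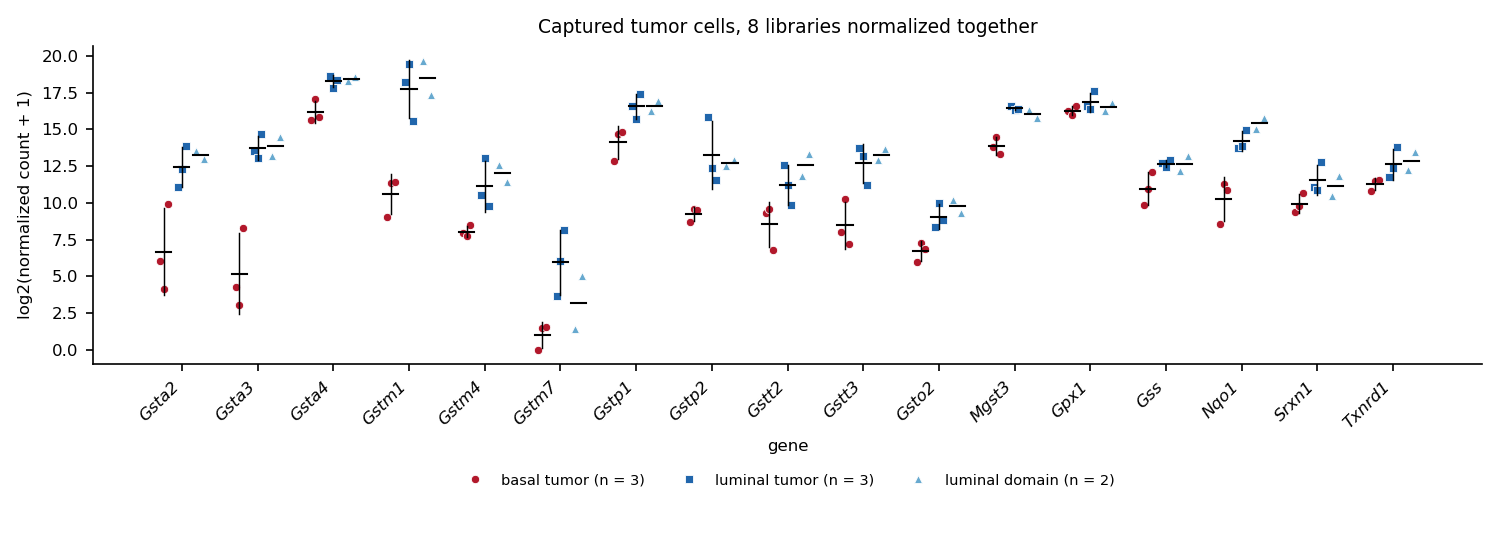
Log2(normalized count + 1) of 17 genes in the 8 tumor libraries that were normalized together, 1 point per library, for basal tumors (circles, n = 3), luminal tumors (squares, n = 3) and luminal domains (triangles, n = 2), with group means as bars and the SD as a line for groups of 3. Except for Gpx1, the genes shown were chosen as the 16 of 40 members tested in which every luminal tumor lies above every basal tumor.

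The comparison of luminal with basal tumors was also made between tissues of unlike make-up. Summed leukocyte markers ranged from 32610 to 150300 normalized counts in basal and from 950.7 to 19720 in luminal tumors, fibroblast markers from 47050 to 74170 and from 225.1 to 17670, and smooth muscle markers from 7104 to 55740 and from 154.2 to 1517. Of the markers tested, 0 of 12 leukocyte markers were called, and 4 of 8 fibroblast and 3 of 6 smooth muscle markers were called lower. Proliferation markers summed to 40230 to 59650 in basal and 8206 to 41970 in luminal tumors, with 1 of 8 called lower, and red blood cell markers to 2088 to 7212 and 2775 to 363600, with 0 of 5 called. Pan-epithelial markers summed to 43210 to 158700 in basal and to 285600 to 387000 in luminal tumors, and luminal urothelial markers to 23370 to 74280 and 358000 to 1397000, with 7 of 13 called higher. Basal and squamous markers summed to 369100 to 824500 in basal and 15790 to 299300 in luminal tumors, with 7 of 7 lower on average and 1 called. Endothelial markers summed to 1745 to 3718 and 374.2 to 1831, with 3 of 5 lower without overlap and 0 called. The part of these cells in the differences above was not tested. In such bulk samples fewer cells of a type and less RNA per cell cannot be told apart.

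The 5 calls among these genes between luminal and basal tumors depended on single libraries, while their directions held in all 14 alternatives. Without basal tumor a, luminal tumor a or luminal tumor b 0 members were called, and without luminal tumor c 7 were higher and 1 lower. Over these alternatives the adjusted p of Gsta3 reached 0.082 at most, that of Mgst3 0.082, that of Gstm1 0.0886, that of Nqo1 0.0947 and that of Gstt3 0.134. The call was lost in 3 of the 14 for Gsta3, Gstm1 and Mgst3, in 5 for Nqo1 and in 7 for Gstt3.

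In the neighbouring pathways, 5 of 23 other NRF2-responsive genes tested were higher in luminal tumors, where 1.39% of all genes were, and 0 lower, where 1.16% were. Akr1b8, an aldo-keto reductase known as an NRF2 target, had the largest difference of these lists, at 84720 to 149700 normalized counts in luminal and 826.1 to 2102 in basal tumors (log2 difference 6.38 ± 0.42, adjusted p = 0.000954). Its relative Akr1b3 had 134500 to 232100 against 6792 to 19580 (3.62 ± 0.50, adjusted p = 0.02), and Ptgr1, which reduces unsaturated aldehydes and prostaglandins, had 24240 to 91980 against 991.9 to 6664 (4.18 ± 0.75, adjusted p = 0.0334). Of 11 superoxide and peroxide genes 2 were lower, namely the extracellular dismutase Sod3, at 8.22 to 53.9 in luminal and 411.4 to 779.8 in basal tumors (-5.01 ± 0.96, adjusted p = 0.0345) and Cyba, a subunit of the phagocyte oxidase, at 522.9 to 1957 against 7154 to 15350 (-3.19 ± 0.55, adjusted p = 0.0285). These 2 genes are known for their expression in stromal cells and in phagocytes. Further, 1 of 22 thioredoxin and peroxiredoxin genes and 1 of 9 genes of NADPH supply were higher, and 0 of 25 genes of cysteine, glutathione and conjugate handling and 0 of 14 NRF2 partners were called. Of 14 alternatives, the call was lost in 8 for Sod3, 6 for Cyba, 6 for Ptgr1, 3 for Akr1b3 and 0 for Akr1b8.

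The third comparison sets the luminal domains of mixed lesions against the same 3 basal tumors, in a table normalized on its own. Transferases of the alpha, mu, pi, theta and microsomal classes and Nqo1 were called higher. Because the basal tumors are shared, the values stand beside those above and do not repeat them independently. Of 39 genes tested among 14921, 9 were higher, where 1.7% of all genes tested were, and 0 lower, where 0.824% were, against 2.53% in either direction. The median log2 difference was 1.78 over the 39 genes and 0.01 over all genes. Without overlap, 22 genes lay higher and 1 lower, where 14% and 12.8% of all genes tested did. Gsta3 and Gstm6 were among the 39 only because of luminal libraries, so these counts and the median describe the genes tested and give no support to a direction.

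The 9 called genes were Gsta2, Gsta3, Gstm1, Gstm4, Gstp2, Gstt2, Gstt3, Mgst3 and Nqo1. Gsta3 had 10200, 25410 and 16290 normalized counts in luminal domains a to c against 19.65, 7.61 and 328.3 in basal tumors, a log2 difference of 8.70 ± 1.21 (limma adjusted p = 0.0239, and 0.0366 with no filter on low values, since it reached the filter only with luminal libraries). Gsta2 had 12580, 8893 and 5499 against 66.7, 16.7 and 987.8 (6.33 ± 1.28, adjusted p = 0.0481). Gstm1 had 856300, 174600 and 64600 against 532.7, 2676 and 2827 (7.06 ± 0.97, adjusted p = 0.0239). Of the 9 genes, the spread among luminal domains was widest in Gstm1, where domain a exceeded domain c by more than 10 times, while the basal tumors reached 2827 at most.

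Gstm4 had 6574, 3008 and 1040 normalized counts in luminal domains against 255.2, 214.7 and 368.8 in basal tumors (3.325 ± 0.68, adjusted p = 0.0488). Gstp2 had 6224, 8163 and 5061 against 424.5, 776.4 and 752.7 (3.34 ± 0.37, adjusted p = 0.0166), the smallest adjusted p of the 39 genes. Its values were close together within both groups. Gstt2 had 3971, 11220 and 6298 against 674.9, 785.8 and 115.7 (4.05 ± 0.755, adjusted p = 0.0406), and Gstt3 had 8189, 14080 and 9962 against 265.9, 1237 and 149.7 (4.83 ± 0.72, adjusted p = 0.0258). Mgst3 had 86150, 61160 and 68400 against 15040, 23810 and 10550 (2.19 ± 0.35, adjusted p = 0.0299). Nqo1 had 36330, 60650 and 20010 against 399.7, 2622 and 1971, 27.7-fold higher (4.79 ± 0.715, adjusted p = 0.0258).

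A further 12 genes lay higher without overlap and with a log2 difference of at least 1, but were not called. Gsta4 had 340400, 419600 and 297900 normalized counts in luminal domains against 53730, 140600 and 60990 in basal tumors (2.18 ± 0.46, adjusted p = 0.0547). In the mu class Gstm2 had 4711, 17070 and 8747 against 267.4, 763.8 and 2892 (3.40 ± 0.84), and Gstm6 had 1005, 436.4 and 333.5 against 1.74, 6.52 and 232.3 (4.97 ± 1.65). Gstp1 had 83980, 133100 and 53360 against 7570, 27130 and 29670 (2.204 ± 0.58). In Gstm6 and Gstm2 basal tumor c stood well above the other basal tumors, and nearest to the luminal domains. Gstk1 had 2175, 2265 and 2966 against 1101, 116.5 and 498.3 (2.61 ± 0.76). The omega transferase Gsto1 had 325200, 413200 and 422600 against 91670, 251600 and 244000 (1.11 ± 0.51), and Gsto2 had 1274, 682.8 and 461.5 against 66.3, 161.2 and 122.1 (2.74 ± 0.72). Mgst1 had 17670, 17430 and 7489 against 1180, 7210 and 6678 (1.78 ± 0.70), so that domain c barely cleared basal tumor b, and Mgst2 had 10340, 7593 and 6806 against 57.4, 5828 and 2598 (3.08 ± 1.47). Thus at least 1 alpha, mu, pi, theta, omega, kappa and microsomal transferase lay above all basal tumors in every luminal domain, while the zeta gene Gstz1 overlapped. This did not hold for each gene of these classes. Gstm5 had the opposite order on average, with 89.72 to 314.6 in luminal domains and 297.7 to 6860 in basal tumors (-2.90 ± 1.11, limma adjusted p = 0.198), and overlapped. Gsta1, Gstp3 and Gstt1 overlapped too, with differences of 2.68, 2.38 and -0.02.

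The genes of glutathione synthesis and of the NRF2 system account for the rest. Gclc had 2687, 9866 and 2957 normalized counts in luminal domains against 1000, 2218 and 1055 (1.69 ± 0.565, adjusted p = 0.153). Gclm had 17810, 31360 and 35330 against 10200, 13060 and 9051 (1.34 ± 0.33, adjusted p = 0.0791). Hmox1, which breaks down heme, had 6700, 3709 and 2225 against 1208, 586.3 and 1877 (1.79 ± 0.55, adjusted p = 0.128). Both subunits of the first enzyme of synthesis thus lay above all basal tumors. Nfe2l2 itself lay higher without overlap by less, at 14890 to 17170 against 8526 to 12290 (0.63 ± 0.25, adjusted p = 0.208), and Keap1 differed by 0.18 ± 0.30 with overlap.

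Of the 6 peroxidases tested, 3 were higher and 3 lower on average and 0 were called, with a median log2 difference of -0.02. Gpx1 had 82350, 122100 and 108100 normalized counts against 81450, 68020 and 101600 (0.32 ± 0.33, 95% interval -0.45 to 1.08). Gpx7, of the endoplasmic reticulum, had 76.01, 13.01 and 4.41 against 301.2, 94.2 and 84.3, the 1 member lower without overlap (-2.91 ± 1.31, adjusted p = 0.261). Red blood cell markers summed to 51620 to 96200 in luminal domains and 2148 to 7557 in basal tumors, and 4 of 5 were called higher. Leukocyte markers summed to 8890 to 23560 and 33520 to 158100, and fibroblast markers to 5689 to 32160 and 48550 to 78000. Smooth muscle markers summed to 1872 to 2153 and 7540 to 62240, with 3 of 7 called lower, and proliferation markers to 11270 to 15550 and 42730 to 64250, with 4 of 8 called lower. Pan-epithelial markers summed to 403000 to 505600 and 45610 to 164200, with 1 of 4 called higher, and luminal urothelial markers to 183500 to 1006000 and 24620 to 77240, with 4 of 13 called higher. Basal and squamous markers summed to 186600 to 297900 and 386800 to 876300, with 7 of 7 lower on average and 0 called. The part of these cells in the results was not tested.

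**Figure D3:**
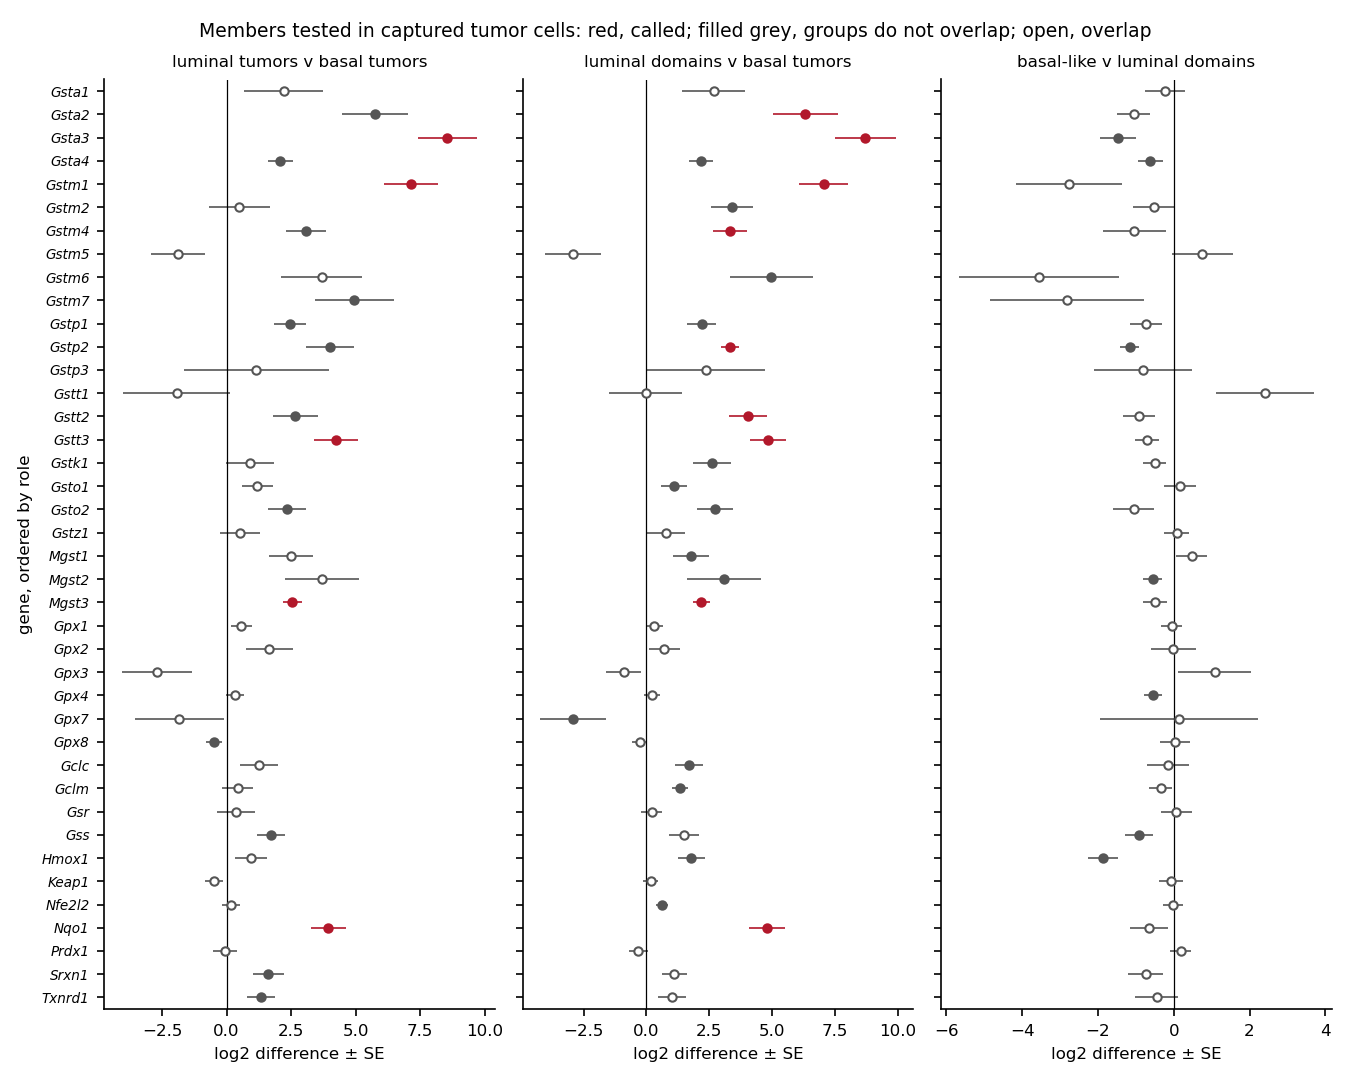
Log2 difference with its standard error (SE) for every member tested in luminal tumors against basal tumors, in luminal domains against basal tumors and in basal-like against luminal domains, with genes ordered by role and the scale of each panel its own. Red points passed an adjusted p of 0.05, filled grey points are genes whose groups do not overlap, and the red points, 5 and 9 in the first 2 panels, are transferases and Nqo1.

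All 9 calls in luminal domains were lost when luminal domain a, luminal domain b or luminal domain c was left out, with 0 members called each time, and without basal tumor a 1 was called. Over all genes, 0 were called without luminal domain a and 0 without luminal domain b. The directions of the 9 held in all 12 alternatives. Without a trend in eBayes 1 of the 9 was called. The highest adjusted p of each over these alternatives lay between 0.111 for Gstp2 and 0.187 for Gstm4. The call was lost in 10 of the 12 for Gstm4, in 9 for Gsta2, in 6 for Gstt2, Mgst3 and Nqo1, in 5 for Gsta3, Gstm1 and Gstt3, and in 3 for Gstp2.

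Of the neighbouring pathways, 5 of 23 other NRF2-responsive genes were higher in luminal domains, where 1.7% of all genes were, and 0 lower, where 0.824% were. The largest difference was again that of Akr1b8, at 40890 to 176100 normalized counts against 869.1 to 2186 (log2 difference 5.98 ± 0.58, adjusted p = 0.0103). Aldh1a1, which makes retinoic acid, had 11020 to 17780 against 154.8 to 2631 (4.34 ± 0.88, adjusted p = 0.0488), and Ugdh, which makes the sugar donor for glucuronidation, had 11830 to 36830 against 1127 to 2851 (3.36 ± 0.50, adjusted p = 0.0258). Akr1b3 had 92860 to 453100 against 7274 to 20560 (3.88 ± 0.64, adjusted p = 0.0313). Of 14 NRF2 partners and regulators 2 were higher, and of these Osgin1 had 2833 to 7783 against 441.2 to 1468 (2.72 ± 0.56, adjusted p = 0.0496). Of 9 genes that supply NADPH, the reducing agent that Gsr and Nqo1 consume, 3 were higher and 0 lower. Of 22 thioredoxin and peroxiredoxin genes 2 were higher and 1 lower, and 1 of 10 superoxide and peroxide genes and 1 of 25 genes of cysteine, glutathione and conjugate handling were lower. Of 12 alternatives, the call was lost in 10 for Osgin1, 9 for Aldh1a1, 6 for Ugdh, 6 for Akr1b3 and 2 for Akr1b8.

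The fourth comparison asks whether the basal-like domains of mixed lesions keep the levels of their luminal domains. No gene in the whole table passed the test, so the comparison gives sizes and intervals and not calls. By limma, 0 of 40 members and 0 of 14874 genes (0%) had an adjusted p under 0.05. Unadjusted, 6 of the 40 and 757 of all genes had a p under 0.05. Without a trend in eBayes 20 of all genes and 0 members were called, and under every other alternative 0 members and 0 genes were. The median log2 difference, basal-like minus luminal, was -0.51 over the 40 genes and 0.01 over all genes. In 7 members every basal-like domain lay below every luminal domain, where 5.14% of all genes tested did, and in 0 above, where 5.62% did.

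Those 7 were Gsta3, Gsta4, Gstp2, Mgst2, Gpx4, Gss and Hmox1. Hmox1 had 1196, 878.3 and 1132 normalized counts in basal-like domains a to c against 6750, 3784 and 2268 in luminal domains a to c, a log2 difference of -1.87 ± 0.41 (limma adjusted p = 0.651). Gstp2 had 2806, 2589 and 3151 against 6184, 8215 and 5089 (-1.17 ± 0.25, adjusted p = 0.651). Gsta3 had 7497, 6601 and 2579 against 8815, 22250 and 14250 (-1.48 ± 0.48, adjusted p = 0.933). Hmox1 and Gstp2 had the smallest unadjusted p of the 40. Red blood cell markers summed to 7123 to 34280 in basal-like and 51010 to 96130 in luminal domains, and their part in Hmox1 was not tested. Fibroblast markers summed to 15040 to 105200 and 5913 to 33190, proliferation markers to 23620 to 34330 and 11590 to 15940, and leukocyte markers to 5295 to 20700 and 9065 to 24020. Pan-epithelial markers summed to 264000 to 370500 in basal-like and 412900 to 518200 in luminal domains, without overlap, and luminal urothelial markers to 63240 to 400300 and 186800 to 1009000, with 13 of 13 lower on average. Basal and squamous markers summed to 275600 to 521600 and 195100 to 307400. Smooth muscle markers summed to 2347 to 8853 and 1901 to 2165, without overlap of the sums, with 5 of 5 tested higher on average. None of these markers was called, and their part was not tested either.

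Gsta4 had 203400 to 259600 normalized counts in basal-like domains and 301300 to 424800 in luminal domains (-0.62 ± 0.33). Mgst2 had 4447 to 6771 against 6799 to 10210 (-0.56 ± 0.25). Gpx4, which reduces lipid peroxides in membranes, had 17460 to 22370 against 24140 to 34180 (-0.55 ± 0.23). Gss had 2695 to 4006 against 4170 to 10320 (-0.93 ± 0.37). In Mgst2 the groups nearly met, at 6771 and 6799, and Mgst2, Gpx4, Gss and Gsta4 are named for their lack of overlap, seen in the data.

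The other genes called between luminal domains and basal tumors overlapped between the domains. Gstm1 had 226300, 38340 and 4734 normalized counts in basal-like and 930800, 192200 and 71050 in luminal domains, a difference of -2.76 ± 1.40 with an unpaired 95% interval of -5.98 to 0.47. Nqo1 had 36840, 25730 and 12450 against 36590, 61880 and 20390 (-0.66 ± 0.50, interval -1.81 to 0.50). Mgst3 had 77530, 38700 and 43660 against 86320, 62060 and 69350 (-0.50 ± 0.32), Gstt3 had 4486, 8823 and 6980 against 8249, 14370 and 10150 (-0.71 ± 0.32), and Gstt2, Gstm4 and Gsta2 differed by -0.91 to -1.06. The 9 genes had been called for being high in these same luminal domains, so nothing is read from the sign of their differences. With letters matched, Gstm1, Mgst3, Gstt3, Gstt2, Gstm4 and Gsta2 were lower in each basal-like domain, and Nqo1 was not. Whether domains of the same letter share a lesion is not known, so this order was not tested. Gpx1 had 112500, 91120 and 97720 normalized counts in basal-like and 82680, 124100 and 109900 in luminal domains. Its difference was -0.06 ± 0.27, with a sign that changed with the scaling and with the libraries left out. Nfe2l2 differed by -0.03 ± 0.27 and Keap1 by -0.08 ± 0.31.

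**Figure D4:**
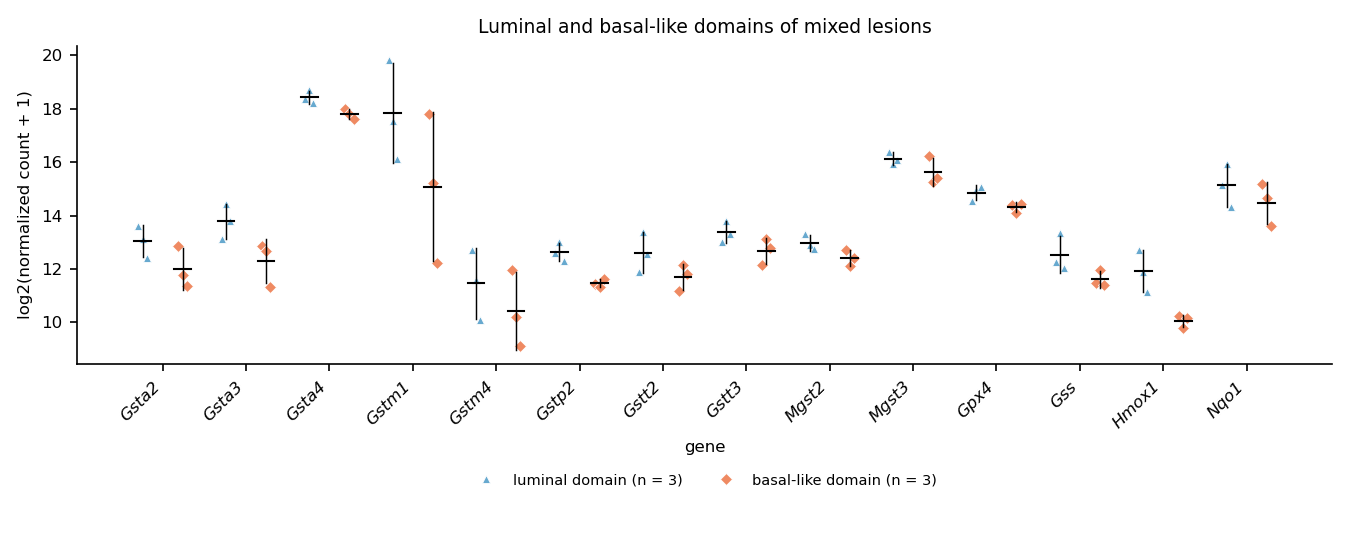
Log2(normalized count + 1) of 14 genes in luminal domains (triangles, n = 3) and basal-like domains (diamonds, n = 3) of mixed lesions, 1 point per library, with group means as bars and the SD as a line. Gsta3, Gsta4, Gstp2, Mgst2, Gpx4, Gss and Hmox1 lie lower in every basal-like domain, and among the genes plotted the spread within a group is widest in Gstm1.

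The basal tumors and the basal-like domains were not normalized together, so their levels are given side by side only. Gsta3 stood at 7.61 to 328.3 normalized counts in basal tumors, in the table with the luminal domains, and at 2579 to 7497 in basal-like domains. Nqo1 stood at 399.7 to 2622 and at 12450 to 36840, and Mgst3 at 10550 to 23810 and at 38700 to 77530. Gstm1 stood at 532.7 to 2827 and at 4734 to 226300. Of all normalized counts, the 25 transferases together took 0.388 to 1.07% in basal tumors, 1.86 to 3.4% in luminal domains of the same table and 1.93 to 2.15% in basal-like domains. In the table of 8 tumor libraries they took 0.391 to 1.08% in basal and 2.54 to 2.84% in luminal tumors, and in sorted cells 2.26 to 3.67% in controls and 2.29 to 3.55% in mutants. Counts grow with transcript length, so these shares compare libraries and not genes.

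**Figure D5:**
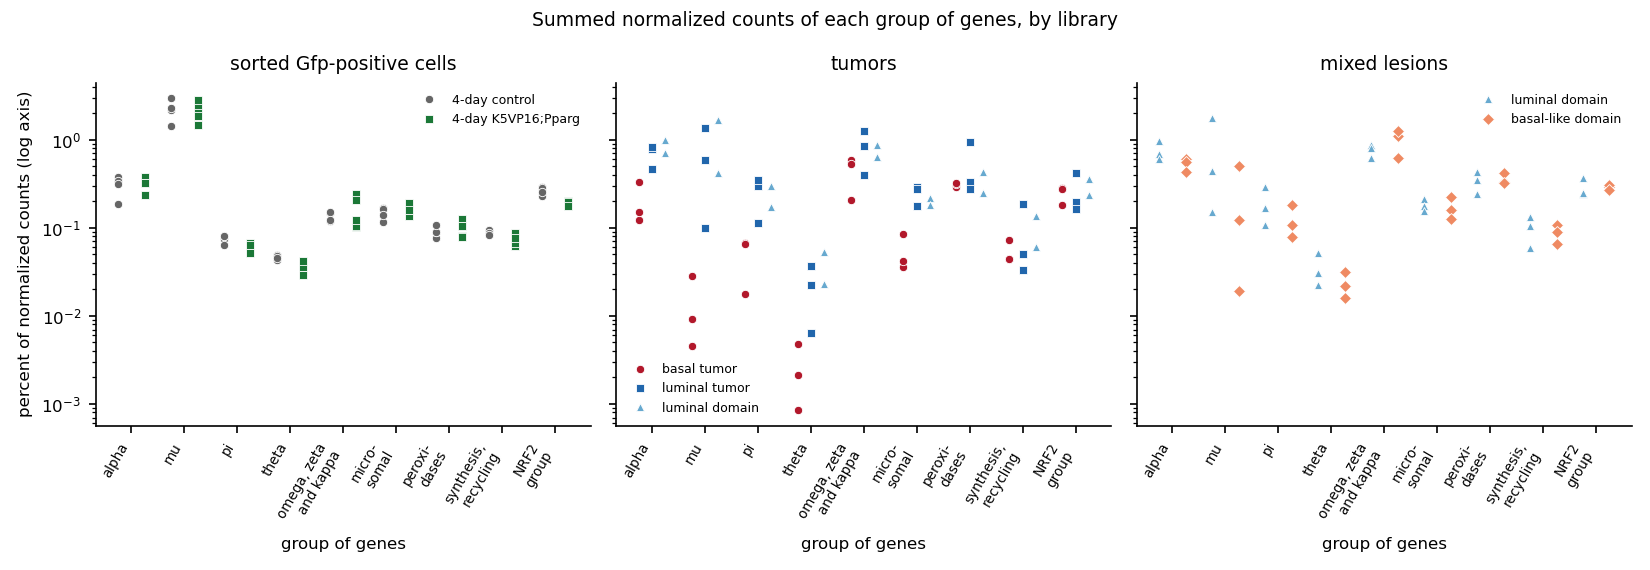
Percent of all normalized counts in a library, on a log axis, for the summed genes of each group, in sorted cells (4 controls, 5 mutants), tumors (3 basal, 3 luminal, 2 luminal domains) and mixed lesions (3 luminal and 3 basal-like domains), 1 point per library. The theta and mu transferases span the widest range between basal and luminal tumors, from 0.000847 to 0.0367% and from 0.00455 to 1.36%. Basal and luminal tumors overlap in the peroxidases, the omega, zeta and kappa transferases, the genes of glutathione synthesis and recycling and the NRF2 system.

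Of the 45 genes, Gstt4, Gpx5, Gpx6 and Ggt1 were tested in no comparison. Gstt4 did not exceed 3.39 normalized counts in any library of the 4 tables used for the main comparisons, and Gpx6 had 14.53 and 14.75 in mutants d and e and 0 in every other library. Gpx5 had 76.2 in basal tumor c in the table of 8 tumor libraries and under 1 in every other library of it, and Ggt1 ranged from 0 to 40.1. Gstm3 was also untested in all 3 comparisons of captured cells, and Gstm7 in luminal domains against basal tumors. Genes that passed the filter only through the group where they are high, such as Gstm7 in luminal tumors, had to differ to be tested at all.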

How the data were processed

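RNA was read by RNA-seq after SMART-Seq v4 amplification and Nextera XT library preparation, from cells sorted for Gfp 4 days after tamoxifen and from laser-captured tumor cells. The authors deposited 1 signal value per gene and library, a count estimated by kallisto and normalized with DESeq2. The submitters' processing notes name bcl2fastq 2.20, kallisto 0.44.0, sleuth, DESeq2 1.18 and the builds GRCh38 and GRCm38. The transcript index is not given in the sources used here. Each comparison has a table normalized on its own, so levels were tested only within a table. Because the normalization depends on the gene, whole reads could not be recovered and no count test was run. The authors' columns of fold changes and p-values were not used, and 8 columns of normalized values from untreated and carcinogen-treated urothelium were not used because their names could not be tied to a group, which leaves 21 of 29 samples.

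Genes with at least 10 normalized counts in as many libraries as the smaller group holds were tested on log2(normalized count + 1) with limma 3.58.1 in R 4.3.3 (lmFit, eBayes with a trend). P-values were adjusted by the Benjamini-Hochberg method over all genes tested, and a gene was called at an adjusted p under 0.05. Fold changes on this scale understate the change of low genes. Luminal tumors were compared with basal tumors in a fit that also held the luminal domains of that table. The script was tested on simulated data. No 2 libraries of a table shared an identical value above 0 for the same gene. Genes called, genes with a log2 difference of at least 1 and no overlap, and the highest mu transferase and peroxidase are given by name with each library's value, and the 5 called genes with the largest difference in neighbouring pathways by name with the range of each group. The members and all lists were chosen with earlier results of these data known. Alternatives changed the pseudocount, the filter, the trend, the scaling, the grouping and the libraries used. Plots were drawn with matplotlib 3.10.9 in Python 3.11.15.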

Additional observations from a re-analysis of the deposited data

Results flagged for a closer look

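In sorted cells Nqo1 was lower in every mutant than in every control, while in captured tumors it was higher in every luminal than in every basal sample. The log2 differences were -1.095 at 4 days, 3.95 in luminal tumors and 4.79 in luminal domains. In 4 further genes every mutant lay below every control at 4 days and every luminal domain above every basal tumor, which with Nqo1 makes 5 of 39 members tested in both comparisons, where 0.714% of all 14006 genes tested in both had this order. The 4 were Gstk1 (-0.47 and 2.61), Gclc (-0.61 and 1.69), Gclm (-0.50 and 1.34) and Nfe2l2 (-0.57 and 0.63). Between luminal and basal tumors all 4 overlapped, with differences of 0.89, 1.26, 0.43 and 0.16. The order was seen in these values first, and the shares were counted for this order alone. The shares therefore describe the genes and give no support to a reversal. These differences between the comparisons were not tested, since the tables were normalized separately, and the comparisons differ in carcinogen, time and method of collecting cells, which cannot be told apart.

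In sorted cells only, 26 sets of values, each of a named gene in a group, were checked for a library far from the rest. Both the highest and the lowest value of a set were checked. A library stood apart in 2 sets, both of mutants. Pon3 had 2246 normalized counts in mutant a and 2679 to 2853 in the other mutants. Slc40a1 had 1844 in mutant e and 2783 to 2888 in the other mutants. At the 95% limit used, some such values are found by chance.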

How the results depend on the processing

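No paired analysis was possible because no label ties the columns of the basal-like domains to a replicate number, or any column to a mouse or lesion, and the alternatives planned for the untreated and carcinogen-treated urothelium were not run because its columns could not be tied to groups. Against 3 members called at 4 days, 5 were called with quantile normalization, 1 in the smaller table of 3 against 3 libraries and 0 with only the libraries low in Y-linked genes, an alternative chosen after seeing the data whose control arm is 1 library and which called 8 of all genes, so that its count shows nothing about the calls. Leaving out single libraries gave 0 to 4. Against 5 called in luminal tumors, 3 were called without a filter on low values, 3 without a trend in eBayes and 10 with luminal domains added, where 513 of 15357 genes were called in all, and leaving out single libraries gave 0 to 8. Against 9 called in luminal domains, 1 was called without a trend, and leaving out single libraries gave 0 to 8. In those fits fewer genes were called overall too, such as 14, 3 and 3 without basal tumor a, luminal tumor a or luminal tumor b. In basal-like domains 0 members were called in every fit. Of 1044 alternative values for 78 named results, 843 kept direction and side of the threshold, 177 kept direction and lost the call, 17 gained one and 7 changed sign. All 7 were differences near 0 in the main test: Gstm1 at 4 days (-0.001 with upper-quartile scaling, and -0.176 to 0.182 with single libraries left out, negative without control a, mutant b or mutant e) and Gpx1 between domains (0.107 with quantile normalization, and -0.223 to 0.07 with single libraries left out, positive without luminal domain b or basal-like domain b). The causes were not tested. Upper-quartile scaling moved the median log2 difference of all genes from 0.01 to -0.138 in luminal domains, and quantile normalization moved it from -0.098 to 0.023 in luminal tumors. Groups of 3 libraries limit precision, and the depth in reads is known only in relative terms.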
